A study of Caenorhabditis briggsae with 16 samples.

Results

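Hourly small RNA libraries of larvae of the nematode Caenorhabditis briggsae were compared between 2 windows of 4 h, 18 to 21 h and 22 to 25 h after plating. These are 8 of the 16 libraries of a time course that runs from 18 to 33 h, and they were chosen by their hour alone. All animals were wild type (WT), of the strain AF16, without treatment. Synchronized larvae of the L1 stage were plated on 10 cm plates with 2000 worms on each and kept at 25°C, and whole animals were harvested. Each hour is 1 library, so the 4 hours of a window stand in for replicates, and the p-values measure a change against the spread between hours, drift within a window included. The study made this time course to ask whether the C. briggsae relatives of C. elegans miR-235, the Mir-92 paralogues, rise and fall in a rhythm.

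MicroRNAs (miRNAs) are short RNAs that are cut from a hairpin precursor and guide Argonaute proteins to mRNAs that are then repressed. A hairpin yields a 5p and a 3p arm. The arm that stays in Argonaute is the guide (miR) and the partner, which is usually removed faster, is the passenger strand (miR*). In C. elegans, miRNAs such as lin-4 and let-7 time the transitions between larval stages, and related miRNAs with a shared seed form families that can act on the same mRNAs. Arms are named here as in MirGeneDB, without the species prefix Cbr-. An asterisk marks the passenger strand as annotated, -P and -o numbers mark paralogues, and -v1 and -v2 mark variants of 1 hairpin with the same or nearly the same counts.

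The 8 libraries held 10084311 counts (21 h) to 15866144 counts (19 h), and the median library held 14600038. Normalized counts, used throughout, are counts scaled to the mean total of all 16 libraries by the column total. The 21 h library had the lowest mean correlation with its neighbouring hours, r = 0.991 on the log2 scale over arms, against 0.992 to 0.997 for the remaining 7, and the fewest arms with a count, 339 against 348 to 357. Of 372 arms, 367 had a count in these libraries and 311 passed a minimum of 10 counts in 4 or more of them and were tested with edgeR. The share of the counts taken by the 10 most abundant arms was 64.5% ± 0.874 (SD, n = 4) at 18 to 21 h and 61.8% ± 0.382 (SD, n = 4) at 22 to 25 h (2-sided exact permutation test, p = 0.0286, the smallest the design allows, adjusted p = 0.0857 over 3 measures). Passenger strands took 4.01% ± 0.465 and 4.02% ± 0.399 of the counts (exact p = 0.914). The hours are ordered and not exchangeable for a value that drifts, so these exact p-values cannot separate a window difference from drift. The share of the 10 most abundant arms was 64.7% at 18 h, 61.6% at 25 h and 58.7% at 33 h. In whole animals, a change in the number of cells that hold a miRNA and a change per cell cannot be told apart.

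Between the windows, 39 arms rose (12.5% of the 311 tested) and 11 fell (3.54%) at a Benjamini-Hochberg adjusted p below 0.05 in edgeR. The largest rises were those of Mir-85, Mir-246, Mir-1817, Mir-358 and Mir-193, all of them rare at 18 h. The guides of Mir-85, Mir-246 and Mir-193 were still climbing at 25 h. Mir-77 and Mir-70, already abundant, rose more than 2-fold. The falls were smaller and included the abundant guides of Mir-279. Among arms without an asterisk, 31 of 196 rose (15.8%) and 6 fell (3.06%), and among passenger strands 8 of 115 rose (6.96%) and 5 fell (4.35%). Of the 39 rises, 25 were of at least 1 on the log2 scale, and 3 of the 11 falls were of that size. The median rise was 1.22 and the median fall 0.701. In 36 of the 39 and 9 of the 11 the windows did not overlap, which over all 311 arms was so for 52 higher (16.7%) and 17 lower arms (5.47%). Some of these arms repeat each other. With the -v2 rows left out of the counting 35 rises and 9 falls remained. With arms of a family that were linked in chains by like hourly profiles counted once, 29 and 9 remained.

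**Figure D1:**
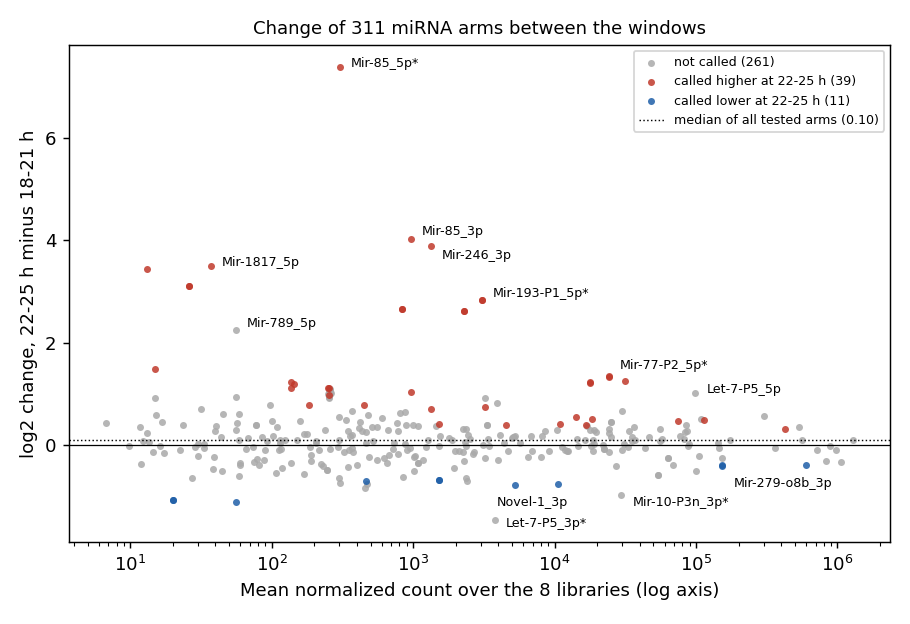
Each point is 1 of the 311 tested arms. The x axis gives the mean normalized count over the 8 libraries (log axis) and the y axis the edgeR log2 change, 22 to 25 h minus 18 to 21 h. Red points mark the 39 arms that rose and blue points the 11 that fell, grey points the other 261, and the dotted line is the median of all arms, 0.10. The largest rise, 7.37, is that of Mir-85_5p*, which passed the count minimum only through the later hours. The falls reach -1.10.

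The median change of all 311 arms was 0.10, and a scaling by TMM factors moved it to -0.03, a shift of -0.13. With TMM, 23 arms rose and 15 fell, so that 60.5% of the calls were rises in place of 78.0%. With median-of-ratios factors (shift -0.12) 30 rose and 18 fell, 62.5% rises. Leaving out single hours gave between 11 rises (23 h or 24 h left out) and 58 (21 h left out). The falls went from 0 (23 h or 24 h left out, with 19 and 20 falls at an unadjusted p below 0.05 in edgeR) to 20 (21 h left out).

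The steepest onset was that of Mir-85, for which both arms rose. The guide Mir-85_3p had 73.2, 129, 93.7 and 147 normalized counts from 18 to 21 h and 278, 842, 2229 and 3885 from 22 to 25 h. Every hour of the later window lay above every hour of the earlier one, and the level grew at each step from 20 h on (log2 change 4.03 ± 0.76 (SE), adjusted p = 0.0132). From 22 to 25 h alone it grew 14.0-fold (95% counting interval 12.5 to 15.7), and it went on to 41765 at 29 h. The passenger strand Mir-85_5p* was almost without reads early, with 1, 0, 9 and 5 raw counts from 18 to 21 h, and reached 69, 418, 708 and 1440 raw counts from 22 to 25 h (log2 change 7.37 ± 1.21 (SE), adjusted p = 0.00940). Its size of change rests on those few early counts, while the windows lie far apart. The passenger strand passed through a maximum of 4210 normalized counts at 28 h and then declined to 1013 at 33 h, when the guide stood at 32004.

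Mir-246, which in C. elegans is found in gonadal sheath cells and bears on lifespan, began to climb between 20 and 21 h. Its guide Mir-246_3p had 97.9, 68.4, 112 and 402 normalized counts from 18 to 21 h and 1189, 1728, 2620.5 and 4467 from 22 to 25 h. Its 21 h value already stood above the 3 earlier hours, and the 22 h value was 2.96-fold that of 21 h (95% counting interval 2.62 to 3.34). The windows did not overlap (log2 change 3.89 ± 0.68 (SE), adjusted p = 0.0117), and from 28 h the guide stayed between 11938 and 15228. The rare passenger strand Mir-246_5p* moved with it from 1 to 3 raw counts in each early library to 14 to 47 in the later ones (log2 change 3.45 ± 0.51 (SE), adjusted p = 0.00756). Mir-1817_5p was at its beginning in these hours, with 5.49, 3.93, 3.50 and 12.4 normalized counts and then 24.2, 43, 85.9 and 121 (log2 change 3.49 ± 0.61 (SE), adjusted p = 0.0117). It rose in every hour from 20 h on, and by 30 h it was 49.6-fold higher than at 25 h (95% counting interval 41.3 to 60.0). These 5 arms of Mir-85, Mir-246 and Mir-1817 kept their calls in every setting in which they could be tested, those without single libraries included, with adjusted p up to 0.0480.

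All 6 tested rows of the Mir-193 family rose, 4 of them without overlap, against 12.5% and 16.7% of all 311 arms. The -v1 and -v2 rows of this family have the same or nearly the same counts, so each pair is 1 measurement. With the -v2 rows left out, 3 rises remained. Mir-193-P1-v1_3p had 199, 449, 909 and 1025 normalized counts and then 1966, 2983, 4106 and 6809. It gained in each of the 7 steps, to 34.1-fold its 18 h level at 25 h (95% counting interval 29.8 to 39.2), so the windows are 2 stretches of 1 long climb (log2 change 2.62 ± 0.56 (SE), adjusted p = 0.0194). Mir-193-P2-v1_3p went the same way from 112, 178, 330.1 and 288 to 643, 1068, 1479 and 2533, with a dip at 21 h (log2 change 2.66 ± 0.49 (SE), adjusted p = 0.0122). The passenger strand Mir-193-P1-v1_5p* had a deeper dip, with 176, 726, 1478 and 647 and then 1302, 3478, 5644 and 11123. Its 22 h value lay below that of 20 h, so here the windows overlapped (log2 change 2.83 ± 0.76 (SE), adjusted p = 0.0359), and it outnumbered the annotated guide at 19, 20 and 23 to 26 h before it fell to 2363 at 33 h. Without the 21 h library the adjusted p of Mir-193-P1-v1_5p* was 0.0615. Its call was kept in 12 of 18 settings and lost without any one of the 18, 19, 21, 23, 24 or 25 h libraries (adjusted p up to 0.109). That of Mir-193-P1-v1_3p was kept in 15 and lost without the 19, 23 or 24 h library (adjusted p up to 0.0679).

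**Figure D2:**
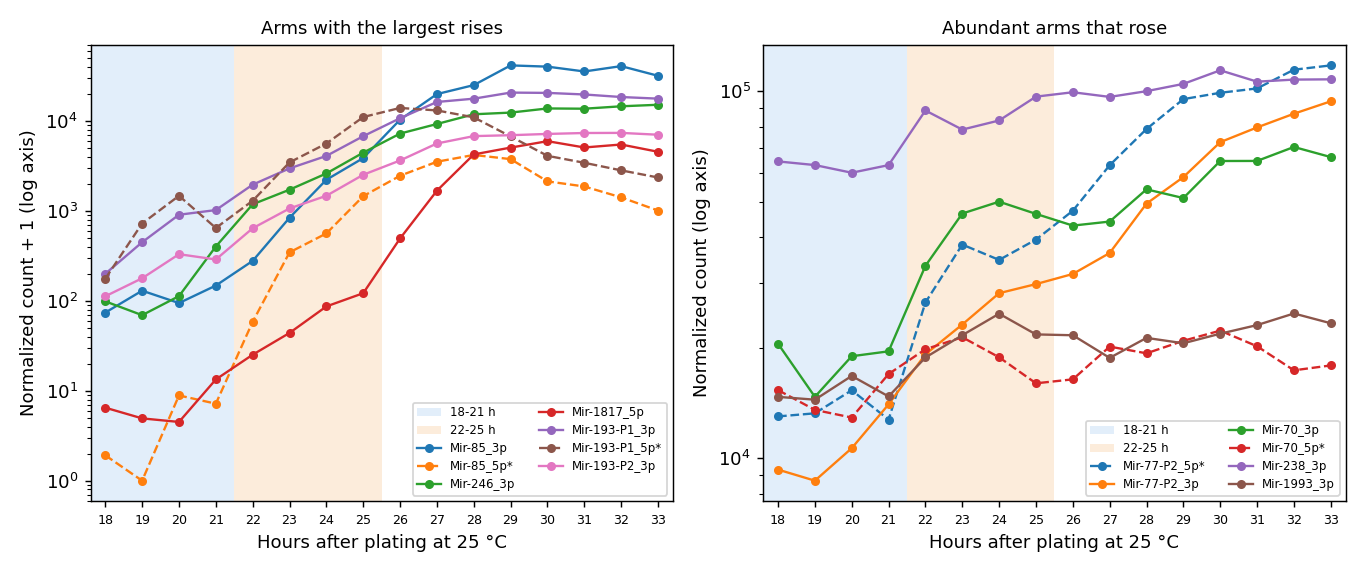
Normalized counts of rising arms at each hour from 18 to 33 h after plating (log axes, 1 library per point, dashed lines for passenger strands). Blue and orange bands mark 18 to 21 h and 22 to 25 h. On the left, with 1 added to each value, Mir-85_3p climbs from 73.2 at 18 h to 41765 at 29 h and both drawn passenger strands turn down after their maximum. On the right, Mir-77, Mir-70 and Mir-238 step up between 21 and 22 h and Mir-77 goes on rising to 33 h.

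All 4 arms of the Mir-77 paralogues rose, against 12.5% of all 311 arms, and the smallest adjusted p-values of all rises were those of their 5p* arms. The arms of P1 and P2 had nearly the same counts, so each pair is close to 1 measurement. Mir-77-P2_5p*, the annotated passenger strand, had 13005, 13259.9, 15326 and 12747 normalized counts from 18 to 21 h and 26574, 38209, 34704 and 39423 from 22 to 25 h. The early hours were flat and the step came between 21 and 22 h, 2.08-fold (95% counting interval 2.04 to 2.13), without overlap (log2 change 1.35 ± 0.14 (SE), adjusted p = 0.000930). The annotated guide Mir-77-P2_3p moved earlier and more gradually, with 9316, 8691, 10655 and 14027 and then 19202, 23145, 28169.6 and 29821 (log2 change 1.23 ± 0.19 (SE), adjusted p = 0.00938). The 5p arm was the more abundant in 7 of the 8 hours, and both arms stood highest at 33 h. All 4 arms kept their calls in every setting.

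Mir-70_3p behaved alike in these hours. It had 20517, 14706, 18970.3 and 19560.5 normalized counts early and 33444, 46424, 50003 and 46320.4 later, a step of 1.71-fold from 21 to 22 h (95% counting interval 1.68 to 1.74) followed by a plateau from 23 h (log2 change 1.26 ± 0.16 (SE), adjusted p = 0.00271). Its partner Mir-70_5p* changed by 0.37 ± 0.13 (SE, edgeR adjusted p = 0.0771). Mir-238_3p, which supports a normal lifespan in C. elegans, was level early at 64366, 62915, 59957 and 62893 and stepped up at 22 h, with 88592, 78585, 83211 and 96627 (log2 change 0.47 ± 0.09 (SE), adjusted p = 0.0122). Its adjusted p was 0.0525 with TMM factors. Mir-1993_3p went from 14702, 14443, 16764 and 14741 to 18821, 21643, 24767 and 21749.8 without overlap (log2 change 0.52 ± 0.11 (SE), adjusted p = 0.0194).

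Smaller rises were found in arms of several other hairpins. Mir-249_3p had 903, 506, 715 and 429 and then 943, 1432, 1360.3 and 1491 normalized counts (log2 change 1.03 ± 0.26 (SE), adjusted p = 0.0345), with the highest early hour just below the lowest later one. Mir-64-o2_5p rose by 0.50 and Mir-64-o3_5p by 0.70, both with their highest value at 24 h. Mir-785-P1_3p rose by 0.43, Mir-9-P15_3p by 0.40, Mir-7589_3p by 0.41, Mir-67_3p by 0.39 and Mir-305-P1_5p by 0.74, the last with overlap of the windows and an adjusted p of 0.0593 without the 21 h library. These 7 calls were lost with TMM factors and, save those of Mir-64-o3_5p and Mir-305-P1_5p, also with median-of-ratios factors. They were lost without any one of the 18, 19, 23, 24 or 25 h libraries, and each was kept in 7 (Mir-67_3p) to 11 of 18 settings, with adjusted p up to 0.156. Mir-249_3p lost its call without any one of the 19, 20, 23, 24 or 25 h libraries (adjusted p up to 0.109). Of the 6 Mir-9 arms only Mir-9-P15_3p passed the test in edgeR, against 16.1% of all 311 arms. The abundant guide Mir-9-P16_5p changed by -0.24 (adjusted p = 0.337). The rare arm Mir-358-v1_3p had a larger change, with 2.75, 7.87, 9.63 and 0 normalized counts early and 17.5, 53.8, 61.2 and 55.9 later (log2 change 3.10 ± 0.64 (SE), adjusted p = 0.0194), and its call was lost without the 23 h or the 24 h library (adjusted p up to 0.0679).

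The Mir-36 family holds the relatives of the C. elegans miR-35 family, which is abundant in embryos and is needed for embryonic development. Of its 28 tested 3p guide arms 7 rose (o2, o3, o5, o14, o16, o17 and o18) and none fell, against 12.5% and 3.54% of all 311 arms. The median change was 0.97 against 0.10 for all arms. In 16 of the 28 the later window lay wholly above the earlier one, which over all arms was so for 16.7%. Of these 16, 15 were among the 19 arms of like profile described below, as were 6 of the 7 rises, so they are not separate results. At an unadjusted p below 0.05 there were 19 rises and 0 falls in edgeR, and DESeq2 called 19 and 0. Of the 13 tested passenger strands none was called (1 higher and 0 lower at an unadjusted p below 0.05, 1 and 0 in DESeq2), with a median change of -0.01. Mir-36-o20_5p, the family's only tested 5p arm without an asterisk, changed by -0.53 ± 0.51 (SE, adjusted p = 0.507). Mir-36-o14_3p, the most abundant of the 7, had 10039, 10416, 11484 and 13871 normalized counts from 18 to 21 h and 16002, 16299, 17409 and 17353 from 22 to 25 h. It climbed from hour to hour up to 24 h (log2 change 0.55 ± 0.12 (SE), adjusted p = 0.0194) and was back to 6173 by 31 h. Mir-36-o17_3p, with the largest change of the family, had 60.4, 57.4, 87.6 and 124 and then 155, 199.5, 196 and 223, so that most of its climb came between 19 and 23 h (log2 change 1.24 ± 0.27 (SE), adjusted p = 0.0194).

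Within the family, 19 guide arms (o2 to o12 and o15 to o18, letters included) were linked in a chain by like hourly profiles. Not every 2 of them met the limit for likeness with each other. They were set apart here after their profiles had been seen, so that their likeness is no result. Reads that fit several hairpins were kept in the counting, and how far these arms share reads was not tested. Their summed normalized counts were 3173, 3144, 4682 and 8005 from 18 to 21 h and 8430, 8793, 10036 and 10295 from 22 to 25 h. The sum thus rose mainly from 19 to 21 h, inside the earlier window, and was higher still at 24 and 25 h. Of the 19, 6 passed the test and 15 did not overlap, and their changes ran from 0.61 to 1.24. Without the 21 h library, the highest of the early hours, 18 of the 19 passed, with a median change of 1.41. The remaining 9 of the 3p guides (o1, o13, o14, o19 and o22 to o26) summed to 39441 to 62878 early and 49866 to 59166 later, with a median change of 0.03. Of these only o14 passed in edgeR. Several of them were to climb later, such as Mir-36-o19_3p, which had 3584 to 5167 normalized counts early, 3938 to 5193 at 22 to 25 h and 108774 at 33 h. The family count depended on single hours: 19 arms rose without the 21 h library, none without the 19, 23, 24 or 25 h library (19 or 20 higher at an unadjusted p below 0.05 in edgeR) and 2 with TMM factors.

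Among the falls the most abundant were the guides of the Mir-279 family, which in Drosophila restricts the formation of CO2-sensing neurons. Mir-279-o8b_3p had 668318, 614914, 668993 and 746742 normalized counts from 18 to 21 h and 591721, 475433, 497280.0 and 496570.0 from 22 to 25 h. It peaked at 21 h and was 1.57-fold lower at 23 h (95% counting interval of the ratio 1.56 to 1.58), and all later hours lay below all early ones (log2 change -0.39 ± 0.10 (SE), adjusted p = 0.0345). Mir-279-o7_3p and Mir-279-o8a_3p followed in parallel, with changes of -0.39 and -0.40. The counts of Mir-279-o7_3p kept a nearly constant proportion to those of Mir-279-o8b_3p, so these 2 are close to 1 measurement. The rarer passenger strands moved on another course. Mir-279-o7_5p* had 3030.3, 3920.5, 2880.1 and 1766 and then 1022, 1362, 2248 and 2800.4, lowest at 22 h and recovering while the guide stayed low, so the windows overlapped (log2 change -0.64 ± 0.35, adjusted p = 0.244). Of 10 tested arms of the family 3 fell and none rose, against 3.54% and 12.5% of all 311 arms. Of the 10, 3 were higher at an unadjusted p below 0.05 in edgeR, 3 in DESeq2 and 0 in limma. The 3 calls were lost in edgeR without any one of the 18, 19, 20, 23, 24 or 25 h libraries, with adjusted p up to 0.112 for Mir-279-o8b_3p.

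Several of the other falls were slopes that had begun before 22 h. The largest of them among arms with a mean normalized count of at least 100 was that of a 3p arm which the table assigns to no numbered miRNA family. It fell with each hour up to 24 h, with 7501, 7390.2, 6107 and 5399.7 and then 4794, 4064, 3322 and 3328 normalized counts (log2 change -0.77 ± 0.17 (SE), adjusted p = 0.0194), 2.25-fold in all from 18 to 25 h (95% counting interval 2.16 to 2.35). Mir-22-P2-v1_3p fell at each of the 7 steps, with 2309, 2014, 1663 and 1468 and then 1368, 1136, 1104 and 1069 (log2 change -0.67 ± 0.17 (SE), adjusted p = 0.0345). Mir-2-o3_5p*, a passenger strand of a family that restrains pro-apoptotic genes in Drosophila, had 474, 748, 641 and 418 and then 357, 375, 334 and 337 (log2 change -0.70 ± 0.20 (SE), adjusted p = 0.0460). The guide Mir-2-o3_3p changed by -0.04 ± 0.08 (adjusted p = 0.754), at 40442 to 46638 in every hour, and of the 6 tested Mir-2 arms none rose (0 at an unadjusted p below 0.05 in edgeR and 0 in DESeq2). Of the rare arms, Mir-248-v1_5p* went from 24.4 to 32.9 to 10.3 to 16.3 normalized counts (log2 change -1.06 in edgeR, adjusted p = 0.0194), and Mir-10-P1_3p* changed by -1.10 (adjusted p = 0.0484) with overlap, since its 18 h value of 37.5 was as low as the later ones. The call of Mir-248-v1_5p* was kept in 16 of 18 settings, that of Mir-2-o3_5p* in 8 and that of Mir-10-P1_3p* in 7. That of Mir-22-P2-v1_3p was kept in 12 and lost without any one of the 18, 19, 20, 23, 24 or 25 h libraries (adjusted p up to 0.109). The call of the 3p arm outside the numbered families was kept in 14 and lost without any one of the 19, 23, 24 or 25 h libraries (adjusted p up to 0.0774).

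The let-7 family ends larval programs in C. elegans, and its members act from the second larval stage to adulthood. Here its 4 guides had changes of 0.28 to 1.02 and its 4 passenger strands of -1.45 to -0.31. Of the guides 1 rose and of the passenger strands 1 fell, against 12.5% and 3.54% of all 311 arms. Let-7-P8_5p, the most abundant, had 343994, 362146, 379542 and 428031 normalized counts and then 460010.0, 485603, 490374 and 449234 (log2 change 0.32 ± 0.09 (SE), adjusted p = 0.0444). It rose at each hour up to 24 h without overlap, and its change was 0.19 with an adjusted p of 0.259 with TMM factors. Its call was kept in only 7 of 18 settings. It was also lost with median-of-ratios factors, with both other count filters and without any one library except that of 21 h. The passenger strand Let-7-P6_3p* fell, with 10319.6, 14082, 15559 and 12974 and then 7981, 5576, 7138 and 10519. It dipped to 23 h and was back above its 18 h level at 25 h, so the windows overlapped (log2 change -0.76 ± 0.21 (SE), adjusted p = 0.0359). Its guide Let-7-P6_5p, the rarer arm of this hairpin in each of the 8 hours, had 1626 to 2362 and then 2291 to 2842 (change 0.33 ± 0.15, adjusted p = 0.170).

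The largest movement of the family took place inside the earlier window and the window test did not call it. Let-7-P5_5p had 12328, 33811, 82167 and 133818 normalized counts from 18 to 21 h and 143145, 126490.0, 128160.0 and 133213 from 22 to 25 h. It thus rose 10.9-fold in 3 h (95% counting interval 10.7 to 11.1) and then stayed level, at 0.995 of its 21 h value at 25 h (95% counting interval 0.987 to 1.00). The change between the windows was 1.02 ± 0.59 (adjusted p = 0.270). Its passenger strand Let-7-P5_3p* went through a wave, with 986, 5138, 8723 and 7346 and then 1786, 793, 1367 and 4187, between 10.3-fold and 11.8-fold lower at 23 h than at 20 h (95% counting interval of the ratio). Its windows overlapped (change -1.45 ± 0.68, adjusted p = 0.177), and the guide showed no such wave.

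The ratio of the arms was tested in 127 hairpins with limma, which sets aside the scaling of the libraries. Of these 3 changed (2.36%), all towards the 5p arm. For Let-7-P5 the log2 ratio of 3p over 5p changed by -2.85 ± 0.49 (SE, adjusted p = 0.0289), for Let-7-P6 by -1.12 ± 0.21 (adjusted p = 0.0289) and for Mir-85 by -1.66 ± 0.33 (adjusted p = 0.0289). In both let-7 hairpins the passenger strand thinned out relative to its guide. In Mir-85 it was the passenger strand, all but absent early, that gained on the guide. The value for Mir-85 depends on the 8 counts added to each arm, since the passenger strand had few early reads: with 1 added, the change was -3.29 ± 0.68 (SE, adjusted p = 0.0434), and the hairpin could not be tested when both arms had to have 10 counts in all 8 libraries. In Mir-70 the change was 0.88 ± 0.21 (adjusted p = 0.0735). In Mir-246, whose passenger strand was as rare, it was 2.39 ± 0.60 (adjusted p = 0.0829) with 8 added and 1.13 ± 0.61 (adjusted p = 0.462) with 1 added. In 6 of the 127 hairpins both arms rose, and in none did both fall or the arms go in opposite directions. The 6 were Mir-85, Mir-246, Mir-77-P1, Mir-77-P2 and Mir-193-P1 in both variants. Of these the Mir-77 paralogues, and likewise the Mir-193-P1 variants, repeat each other in their counts. The passenger strands of Mir-85 and Mir-246 entered the test only through the later hours. Leaving out single hours gave between 0 hairpins (19, 23 or 24 h left out, with 18, 13 and 16 hairpins at an unadjusted p below 0.05) and 7 (18 h or 21 h left out).

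**Figure D3:**
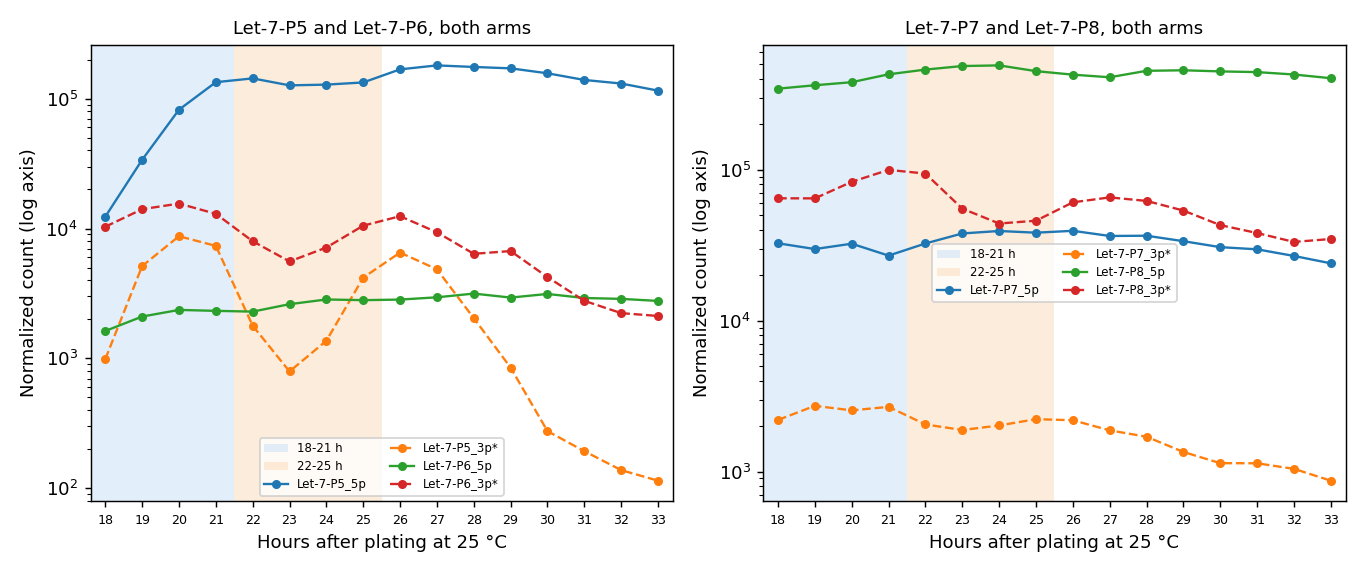
Normalized counts of both arms of the 4 let-7 family hairpins at each hour from 18 to 33 h (log axes, 1 library per point, dashed lines for passenger strands). Bands mark the windows. Let-7-P5_5p climbs from 12328 at 18 h to 133818 at 21 h and then stays level, while Let-7-P5_3p* peaks at 20 h and at 26 h with a low of 793 at 23 h.

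Of the 10 most abundant arms, 2 passed the test, Let-7-P8_5p and Mir-279-o8b_3p, near the 16.1% of all 311 arms called in either direction. The guides of the Bantam family, relatives of the C. elegans miR-58 family, made up 4 of the other 8. Bantam-P1a_3p had 871700.0, 1147790.0, 1198440.0 and 1774680.0 normalized counts and then 1402760.0, 1226890.0, 1393910.0 and 1314480.0. It was higher with each hour of the earlier window up to a peak at 21 h, and the windows overlapped (log2 change 0.10 ± 0.19, adjusted p = 0.774). Bantam-P2_3p (0.36, adjusted p = 0.122), Bantam-P3_3p (-0.09, adjusted p = 0.527) and Bantam-P4_3p (0.10, adjusted p = 0.443) were not called either. Of 9 tested Bantam arms 2 rose, against 12.5% of all 311 arms. They were the passenger strand Bantam-P4_5p* (0.78 ± 0.21, adjusted p = 0.0359, from 242 to 464 early to 526 to 639 later) and the rare Bantam-P1b_3p (1.49 ± 0.34, adjusted p = 0.0239). The call of Bantam-P4_5p* was kept in 10 of 18 settings and lost with TMM and median-of-ratios factors. That of Bantam-P1b_3p was kept in 13 of 17.

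Mir-96-P3_5p, a member of a family that serves sensory organs in vertebrates, was the most abundant arm at 18 h and had 1435280.0, 1380340.0, 1181300.0 and 736675 normalized counts, then 948886, 1048960.0, 856510.0 and 922818. Its 21 h value was below all later ones (log2 change -0.33 ± 0.19, adjusted p = 0.285), and without the 21 h library it fell by 0.50 (adjusted p = 0.00974). Mir-10-P1_5p, of the family whose vertebrate members lie in the Hox clusters, had its low at 21 h too, with 946405, 765190.0, 750236 and 473872 and then 604460.0, 774959, 698214 and 681783 (log2 change -0.09, adjusted p = 0.786). Mir-54-P3_3p changed by -0.01 ± 0.10 (adjusted p = 0.962), with its low, 746633, again at 21 h. Mir-90-P1_3p had 1095030.0, 894978, 851561 and 830709 and then 761500.0, 756739, 728962 and 732972, a slow decline without overlap that missed the threshold (-0.30 ± 0.10, adjusted p = 0.0718) and passed it without the 21 h library (adjusted p = 0.0309).

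The passenger strand Mir-10-P3n_3p* moved in a wave that windows of 4 h average out. It had 9934, 50704, 59464 and 37391 and then 10185, 5811, 19878 and 44228 normalized counts, high at 19 to 21 h, low at 22 and 23 h and high again at 25 h (log2 change -0.98 ± 0.68, adjusted p = 0.363). Of the 8 Mir-10 arms none rose in edgeR (2 at an unadjusted p below 0.05, 1 in DESeq2) and Mir-10-P1_3p* fell, against 12.5% and 3.54% of all 311 arms. Mir-788-v1_3p peaked at 21 h with 117197 and was back at 33821 by 24 h (log2 change -0.57, adjusted p = 0.374). Both arms of Mir-71, which promotes long life in C. elegans, and the guides of Mir-92, the family of C. elegans miR-235 that holds larvae in arrest, also had lows and highs within the windows. Mir-71_5p had 83507, 99681, 73669 and 47492 and then 49069.8, 86581, 117020.0 and 110887 (log2 change 0.26 ± 0.30, adjusted p = 0.591), lowest at 21 and 22 h. Mir-92-o67_3p had 349032, 292064, 148460.0 and 181418 and then 385495, 408678, 392648 and 266972 (log2 change 0.58 ± 0.27, adjusted p = 0.177), lowest at 20 h and highest at 23 h. Of the 4 Mir-92 arms 1 passed the test in edgeR, against 16.1% of all 311 arms. It was the passenger strand Mir-92-o68_5p*, with 119.9, 116, 140.1 and 166 and then 258, 257, 219 and 201 (log2 change 0.79 ± 0.18 (SE), adjusted p = 0.0209). Its call was kept in 13 of 18 settings and lost with TMM factors and without any one of the 19, 20, 23 or 24 h libraries.

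The miRNAs that stand for muscle and neurons were not called in edgeR. For muscle, Mir-1_3p had 18088, 18570.3, 21369.6 and 27930.5 and then 25341, 25472, 29792 and 26563 normalized counts, with its 21 h value inside the range of the later hours (log2 change 0.32 ± 0.15, adjusted p = 0.177), and it rose by 0.47 without the 21 h library (adjusted p = 0.0134). Mir-133_3p had 106768, 110515, 110234 and 123785 and then 104158, 95399, 96726 and 94370.2 without overlap (log2 change -0.21 ± 0.08, adjusted p = 0.109, and 1 call lower in DESeq2). For neurons, the 3 tested Mir-124 arms changed by -0.38 to -0.17 (none at an unadjusted p below 0.05 and none in DESeq2). No arm was called in edgeR among the 12 tested of Mir-54, the 2 of Mir-71, the 4 of Mir-788, the 4 of Mir-96 and the 2 of Mir-190. At an unadjusted p below 0.05 these held 2 lower arms, both of Mir-96, of which DESeq2 called 1, and none otherwise. The median change was 0.33 for Mir-54, 0.27 for Mir-71, -0.06 for Mir-788, -0.48 for Mir-96 and 0.08 for Mir-190, the last turning to -0.05 with TMM factors.

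The hour at which an arm moved most differed between the rises. Of the 39 arms that rose, 17 had their largest single step from 21 to 22 h, 7 from 20 to 21 h, 5 from 18 to 19 h, 4 from 19 to 20 h, 4 from 22 to 23 h and 2 from 23 to 24 h. Over all 311 arms the largest rise fell on 21 to 22 h in 75 and on 20 to 21 h in 70. Of the 11 arms that fell, 6 had their largest fall from 21 to 22 h, against 53 of all 311, whose largest fall came most often from 20 to 21 h, in 104. The called arms were chosen by the same hours, so these counts describe them and test nothing. Without the 21 h library 31 further arms were called and 3 calls were lost, those of Mir-305-P1_5p and of Mir-193-P1_5p* in both variants, with adjusted p of 0.0593 and 0.0615. Of the 31, 12 were Mir-36 guides, and Mir-1_3p, Mir-2-P11_3p, Mir-70_5p*, Mir-96-P3_5p and Mir-90-P1_3p were among the others.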

How the data were processed

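The authors extracted RNA with Tri Reagent, made libraries with the TruSeq small RNA kit, sequenced them on a HiSeq2500, trimmed adapters and mapped reads with QuasR and Bowtie, keeping up to 100 hits per read. They deposited counts of same-strand reads that start within 3 bases of an annotated 5′ end. The study's methods name the C. briggsae assembly WS225 with MirGeneDB, while ce10 stands in the submitters' processing notes. Tool versions were not given in the sources used here. The deposited log2 values are total-scaled counts plus 8, and recomputing all 5952 of them gave a largest difference of 5e-04. They entered no test.

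Arms that reached 10 counts in 4 or more of the 8 libraries were tested with edgeR 4.0.16 (quasi-likelihood, R 4.3.3, library size = column total), 22 to 25 h against 18 to 21 h, 2-sided, with Benjamini-Hochberg adjustment over 311 arms. Every adjusted p for an arm comes from this test unless another tool is named. Arm ratios, log2((3p + 8)/(5p + 8)), were tested with limma 3.58.1 over 127 hairpins. Tests were tried on simulated data. Alternatives were other scalings, filters, tools (DESeq2 1.42.0, limma), a slope within windows, all 16 libraries, and leaving out each library. Shared profiles were sought among tested arms of a family and side with a mean count of at least 50. Such arms were linked where the chi-square per degree of freedom between their counts was at most 2. Linked arms were joined in chains, so that 2 arms of a set need not meet the limit with each other. The rule was set after seeing the data. Counting intervals (95%, exact) leave out any error but counting. Named arms are the 10 largest rises and falls with a mean normalized count of at least 100, their partners, the 10 most abundant arms, up to 3 arms of each of the 21 families listed in the report, the 5 hairpins with the smallest ratio p, and Mir-71 and Mir-92. Other arms were named after their values were seen. The members and lists were chosen with earlier results of these data known.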

Additional observations from a re-analysis of the deposited data

Results flagged for a closer look

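In 10 of 176 sets of 4 hours, the highest or lowest hour stood apart from the other 3 of its window, a number near the 1 in 20 that chance gives. Of the 10, 7 lay in the 18 to 21 h window, 3 of them at 21 h. At 21 h, Mir-246_3p had 402 normalized counts with the next hour at 112, Mir-124-P12_3p 584 with the next at 426, and Mir-54-P1b-v1_5p 1582 with the next at 3229. At 20 h, Mir-1993_3p had 16764 with the next at 14741, and Mir-77-P1_5p* 15244 with the next at 13315. At 18 h, Mir-2-P11_5p* had 2214 with the next at 2913, and at 19 h Mir-9-P16_5p had 138533 with the next at 171767. In the later window, Mir-358-v1_3p had 17.5 at 22 h with the next at 53.8, Mir-96-P2p_5p 341 at 22 h with the next at 199, and Mir-92-o67_3p 266972 at 25 h with the next at 385495.

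Rows too low for the test carried counts after 25 h. Mir-36-o21_3p had at most 12 raw counts in the 8 libraries and 87 at 33 h. Mir-193-P2-v1_5p* had at most 21 and then 33 at 33 h, and Mir-254_3p* at most 12 and then 13 at 30 h.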

How the results depend on the processing

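Of the 50 calls, 12 were kept in each of the 18 settings that could test the arm (both arms of Mir-77-P1, Mir-77-P2, Mir-85 and Mir-246, with Mir-70_3p, Mir-1817_5p and Mir-193-P2_3p in both variants), and no called arm changed its direction. For Mir-85_5p* and Mir-246_5p* only 13 settings could test the arm, and no fit without a 22 to 25 h library was among them. With TMM factors 23 arms rose, and 18 fell with median-of-ratios factors. DESeq2 called 65 rises and 22 falls, all 16 libraries in 1 fit 64 and 23, and a slope within the windows 17 falls and 6 arm ratios. With arms linked by like profiles counted once, which was chosen after seeing the data, there were 29 rises and 9 falls. Leaving out single libraries gave 11 to 58 rises, 0 to 20 falls and 0 to 7 arm ratios, the highest counts without the 21 h library. Each of these fits compared 3 with 4 libraries, and without the 22 h library there were 39 rises and 12 falls. How far the smaller number of samples bears on the counts was not tested.

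Uncalled arms near 0 changed sign. With TMM and median-of-ratios factors these were Bantam-P1a_3p (-0.038 and -0.022), Bantam-P4_3p (-0.033 and -0.019), Mir-190_3p* (-0.065 and -0.051) and Mir-190_5p (-0.035 and -0.025). Without single libraries the changes ran from -0.042 to 0.32 for Bantam-P1a_3p, from -0.25 to 0.057 for Mir-10-P1_5p, from -0.035 to 0.17 for Mir-190_3p*, from -0.012 to 0.19 for Mir-190_5p, from -0.082 to 0.030 for Mir-54-P3_3p and from -0.39 to 0.96 for Mir-92-o67_5p*.

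No paired analysis was possible because the labels carry no replicate numbers. The windows are consecutive, so age and window cannot be told apart, and a wave shorter than the windows is averaged out. Depth limits arms below about 10 counts in a library.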
